A study of Rattus norvegicus with 96 samples.

Results

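Ion channel genes whose symbols begin with Kcn, Scn, Cacn or Hcn were followed through the ventral tegmental area (VTA), the nucleus accumbens (NAc) core and the NAc shell of nicotine (NIC) and saline (SAL) treated rats. The count table carried Ensembl gene identifiers only, and symbols were taken from the study's lists of differing genes in its NIC experiments, so a channel gene that no list names was not followed. With that rule 71 of the 17637 genes of the table were members, and all 71 passed the filter on low counts together with 16879 genes in all. Of the 71, 57 were named by lists from NIC sensitization (SST), which were drawn up on these same libraries, and 31 by lists from NIC self-administration (SA), which compared male rats of the 2 directions of the cross after equal numbers of NIC infusions, with 17 in both. Most members were thus selected on the fold changes and p-values of the NIC contrasts of these libraries, so counts of members that differed between NIC and SAL are given as a description only. Differences between brain regions played no part in the naming and were tested.

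The rats were F1 progeny of the inbred strains F344 and BN, with both directions of the cross spread evenly over the groups, and were single housed and young adult (about 250 g, as the labels give it). Males (box1) and females (box3), 16 of each, received 0.4 mg/kg NIC or SAL once daily for 4 days, and tissue was taken on day 17 without a further NIC injection. Each of the 3 regions was dissected by hand and is a mixture of cell types, and 94 libraries in 12 groups of 7 or 8 rats entered the fits. Total counts ran from 15868529 to 27736905 per library, of which the members took 0.346% to 0.566%. Levels are CPM, counts scaled to a common library size, with library sizes adjusted by the trimmed mean of M values, and no transcript lengths were used, so levels were compared between libraries for 1 gene and not between genes.

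Voltage-gated sodium (Nav, Scn genes with the suffix a) and calcium (Cav, Cacna1) channels are opened by depolarization, and the voltage-gated potassium (Kv) channels that follow them repolarize the membrane and set the firing rate. HCN channels open on hyperpolarization and carry what is often called the pacemaker current, while inward rectifiers (Kcnj) and tandem pore domain channels (Kcnk) hold the resting potential. Medium spiny neurons, the projection neurons of the NAc, are known for a very negative resting potential held by inward rectifier current. The symbol pattern was wider than its label: 35 members encode pore subunits of the voltage-gated Kv, Nav, Cav and HCN families (20, 6, 7 and 2) and 36 do not. The others were 8 inward rectifiers, 6 tandem pore domain channels, 10 calcium channel auxiliary subunits, 6 potassium channel auxiliary or related proteins, 3 sodium channel beta subunits and 3 genes of calcium- or sodium-activated potassium channels. Among the auxiliary genes, Cacng2, Cacng3, Cacng5 and Cacng7 belong to the TARP family, which accompanies AMPA-type glutamate receptors, and among the Nav genes Scn7a encodes a sodium-sensing channel that is not opened by voltage.

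Promoter windows are shown for the genes with the widest difference between the VTA and the NAc core on each side that had one, since these carry the regional contrast described next. They are the 250 bases before the annotated start, read 5′ to 3′ on the gene's strand from RefSeq on the assembly GRCr8, whereas the study mapped its reads to the older Rnor 6. Capitals mark GGGCGG or its reverse complement. Scn7a (ENSRNOG00000029342, chr3:71846285-71846534, minus strand) and Kcnj10 (ENSRNOG00000007705, chr13:87334260-87334509, plus strand) were higher in the VTA, and Kcnj4 (ENSRNOG00000013869, chr7:112954548-112954797, minus strand) and Kcnf1 (ENSRNOG00000024310, chr6:45693707-45693956, minus strand) were lower.
Scn7a: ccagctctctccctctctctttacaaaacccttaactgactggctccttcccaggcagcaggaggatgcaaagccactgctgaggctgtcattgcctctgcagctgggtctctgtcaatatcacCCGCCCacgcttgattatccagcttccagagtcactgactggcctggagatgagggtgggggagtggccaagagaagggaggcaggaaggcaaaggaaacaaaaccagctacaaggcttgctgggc
Kcnj10: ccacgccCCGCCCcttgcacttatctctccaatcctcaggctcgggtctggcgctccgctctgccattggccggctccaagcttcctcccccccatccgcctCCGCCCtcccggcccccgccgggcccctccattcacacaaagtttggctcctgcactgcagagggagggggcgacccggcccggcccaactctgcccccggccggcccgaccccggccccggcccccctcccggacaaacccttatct
Kcnj4: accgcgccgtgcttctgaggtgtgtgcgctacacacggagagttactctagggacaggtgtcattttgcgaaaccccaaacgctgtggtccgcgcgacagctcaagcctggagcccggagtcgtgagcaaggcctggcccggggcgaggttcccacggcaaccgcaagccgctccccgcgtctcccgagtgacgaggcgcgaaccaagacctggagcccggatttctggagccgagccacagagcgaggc
Kcnf1: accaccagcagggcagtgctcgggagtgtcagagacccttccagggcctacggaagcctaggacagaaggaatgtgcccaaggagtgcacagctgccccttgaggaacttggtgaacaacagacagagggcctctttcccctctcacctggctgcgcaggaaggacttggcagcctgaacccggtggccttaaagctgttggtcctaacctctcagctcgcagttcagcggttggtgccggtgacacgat

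A window was found for 43 of the 71 members. GGGCGG or its reverse complement was in 20 of the 43 windows (46.5%) and in 30.5% of the 33469 windows of all genes, TATAAA or its reverse complement was in 2 of 43 (4.65%) and 12.9%, and the palindrome TGACGTCA was in 0 of 43 and 1.59%. The members' windows had a median GC content of 61.2%, against 51.2% over all windows, and a median of 12 CG pairs against 5. These are descriptions of letters in the window, and none of the motif counts was tested.

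Before the results, 4 libraries stood apart. Th and Slc6a3, which mark dopaminergic neurons, were at 17.9 and 22.6 CPM in female VTA NIC 2, whereas the median over the VTA libraries was 711 CPM for Th and 855 CPM for Slc6a3. The same library held 2553 CPM of the choroid plexus gene Ttr, and 33 of the 71 channel genes lay outside their range in the other 30 VTA libraries. Female NAc core NIC 1 had 333 CPM of Th and only 1.71 CPM of the striatal receptor gene Drd1, and it was left out of the fits. In male SAL 1, Drd1 was at 9.28 CPM in the core and 5.09 CPM in the shell against region medians of 92.3 and 82.6 CPM. The last 2 libraries and female VTA NIC 2 stayed in the fits, and counts of called members without these 3 libraries are given beside the counts that they moved by over 1.5 times. Male NAc core SAL 3 was the next lowest in Drd1, at 22.7 CPM, and was kept throughout. Ttr was also at 857 CPM in female VTA SAL 16 and 359 CPM in male NAc shell SAL 5, which were kept throughout as well. In the other libraries the defining markers followed the labels, with Th at 0.740 to 3.89 CPM throughout the NAc.

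The first comparison asked which channel genes set the VTA apart from the NAc. Most did: 67 of the 71 members differed between VTA and NAc core and 64 between VTA and NAc shell (edgeR's quasi-likelihood test, Benjamini-Hochberg adjusted p under 0.05). Against the core, 28 were higher in the VTA and 39 lower, beside 41.3% and 40.3% of all tested genes. Against the shell the numbers were 28 and 36, beside 40.5% and 40.4%. The median log2 difference of the members was -0.24 against the core and -0.15 against the shell, with 0.01 and 0.00 over all tested genes. The regions are mixtures of cells, so fewer cells of a type and less RNA per cell cannot be told apart in any of these differences.

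Cell type markers moved with the same contrast. The dopaminergic list (4 of 4) summed to a median of 2009 CPM in the VTA, 12.5 in the core and 15.7 in the shell. Ccdc153, the 1 gene with a symbol on the ependymal list, was at medians of 1.68, 4.45 and 7.58 CPM. The oligodendrocyte list (4 of its 5 genes had a symbol) summed to 22204 to 45938 CPM in the VTA, 9555 to 15013 in the core and 4240 to 18855 in the shell. The astrocyte list (4 of 5) summed to 1503 to 5357 CPM in the VTA, 869 to 1283 in the core and 846 to 1593 in the shell. The list for striatal projection neurons (5 of 6) ran the other way, at 177 to 308 CPM in the VTA, 290.3 to 4066 in the core and 222 to 2787 in the shell. Nrgn, the 1 gene with a symbol on the list for cortical projection neurons, was also lower in the VTA, at 82.3 to 1169 CPM against 1075 to 3343 in the core and 351 to 2918 in the shell. The cholinergic list (3 of 3) summed to a median of 5.19 CPM in the VTA, 23.2 in the core and 35.8 in the shell. The meningeal fibroblast list (4 of 4) was at medians of 415, 158 and 226 CPM, the mural list (2 of 3) at 128, 107 and 111 CPM and the choroid plexus list (4 of 4) at 8.98, 3.31 and 6.12 CPM. Apart from Nrgn and Ccdc153 these are sums over a list, which do not show whether each gene of it went the same way. The part of these cell types in the differences of the channel genes was not tested.

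**Figure D1:**
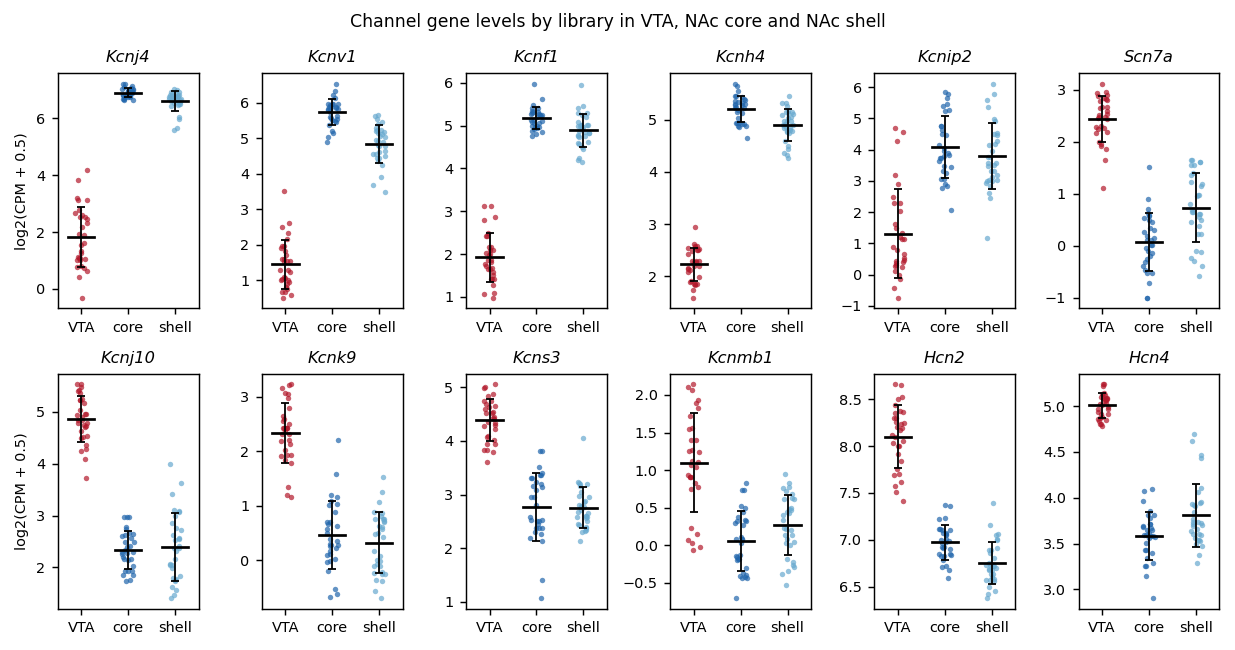
Levels of 12 channel genes in each library of the VTA (31 libraries), NAc core (31) and NAc shell (32), on a log2(CPM + 0.5) axis, with points for libraries and bars for the mean and SD. Kcnj4 lay between 0.306 and 17.8 CPM in the VTA and between 47.4 and 148 CPM in the NAc, without overlap, while Kcnip2 overlapped widely.

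The inward rectifiers went both ways. Kcnj4 encodes Kir2.3, one of the strong rectifiers of medium spiny neurons, and its lowest, median and highest levels were 0.306, 2.54 and 17.8 CPM in the VTA, 98.6, 121 and 148 CPM in the core, and 47.4, 102 and 130.4 CPM in the shell. No VTA library reached a NAc library, and the highest VTA value was that of female VTA NIC 2. The log2 difference was -4.91 ± 0.170 (SE) against the core (edgeR adjusted p = 2.72e-44) and -4.62 ± 0.168 against the shell (edgeR adjusted p = 1.21e-42), and without the libraries that stood apart it was -5.02 and -4.74. Kcnj10 encodes Kir4.1, the main potassium channel of astrocytes that is also made by oligodendrocytes, and went the opposite way, at 12.8, 28.2 and 45.8 CPM in the VTA, 2.85, 4.42 and 7.37 CPM in the core, and 2.16, 4.67 and 15.4 CPM in the shell. Its VTA and core ranges did not overlap, whereas the highest shell library passed the lowest VTA library. The log2 difference was 2.66 ± 0.142 and 2.49 ± 0.138 (edgeR adjusted p = 3.52e-31 and 6.81e-30).
Of the other inward rectifiers, Kcnj5 (GIRK4, a G protein-gated channel) was higher in the VTA than in either NAc region, by 1.07 and 0.97 log2 units. Kcnj13 (Kir7.1, an epithelial channel known from the choroid plexus) was higher by 1.41 and 1.19, and the choroid plexus list summed to 3.51 to 2685 CPM in the VTA, 0.480 to 7.35 in the core and 1.21 to 373 in the shell, whose part was not tested. Kcnj11, the pore of the ATP-sensitive potassium channel, was slightly lower in the VTA, by -0.31 and -0.15. Kcnj12, Kcnj14 and Kcnj3 differed from the core by -0.22, -0.11 and -0.30, and of these only Kcnj14 also passed the test against the shell (-0.22).

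The Kv genes were split, with 9 higher and 10 lower in the VTA of the 20 measured against the core, and the same numbers against the shell. The lower side was led by subunits that modify other Kv channels or belong to the ether-a-go-go group. Kcnv1 (Kv8.1, a silent modifier subunit) was at 0.919, 1.96 and 10.9 CPM in the VTA, 29.4, 56.3 and 91.8 CPM in the core and a lowest of 10.8 and a median of 29.5 CPM in the shell. Against the core the ranges did not overlap, and against the shell they touched at 1 VTA library, again female VTA NIC 2. The log2 differences were -4.46 ± 0.138 and -3.58 ± 0.135 (edgeR adjusted p = 1.17e-47 and 1.68e-41).
Kcnf1 (Kv5.1, also a modifier subunit) was at 1.47, 3.12 and 8.24 CPM in the VTA and 26.8, 34.7 and 62.3 CPM in the core, a log2 difference of -3.35 ± 0.1202. Kcnh4 (an ether-a-go-go-like channel of the forebrain) was at 2.52, 4.32 and 7.21 CPM against 24.5, 37.2 and 50.8 CPM, a log2 difference of -3.10 ± 0.0780. All VTA libraries lay below all core and shell libraries for both genes. Kcna4 and Kcna5, Shaker-type channels, were also lower in the VTA, by -2.12 and -1.95 against the core.
On the higher side, Kcns3 (Kv9.3, a further modifier subunit) was at 11.7, 20.9 and 32.8 CPM in the VTA, 1.60, 6.53 and 13.6 CPM in the core and 3.88, 5.94 and 16.1 CPM in the shell, with log2 differences of 1.69 ± 0.112 and 1.72 ± 0.111 (edgeR adjusted p = 4.29e-25 and 7.01e-26). The fast-activating Kv3 genes Kcnc2 and Kcnc4, which serve rapid firing, were higher in the VTA than in the core, by 0.63 and 0.99 log2 units. Kcna1, Kcna2 and Kcna6, known from axons, were higher by 1.34, 0.91 and 0.89, and Kcnd3 (Kv4.3, the A-type channel of dopaminergic neurons) by 1.136. The ranges of Kcna6 and Kcnd3 did not overlap between VTA and core. Kcnh6 was the 1 Kv gene that passed neither test, with differences of 0.02 ± 0.0586 and -0.06 ± 0.0579.

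Sodium channel pores were mostly lower in the VTA than in the core, with 4 lower and 2 higher of 6. Scn8a (Nav1.6, the pore of the axon initial segment) was at 33.5, 51.6 and 92.9 CPM in the VTA, 65.9, 92.2 and 137 CPM in the core and 55.7, 93.2 and 153 CPM in the shell, with log2 differences of -0.88 ± 0.0791 and -0.87 ± 0.0785. Scn3a (Nav1.3) differed by -0.84 and -0.81, and Scn1a (Nav1.1) by -0.15 against the core (edgeR adjusted p = 0.00444) and -0.06 against the shell (edgeR adjusted p = 0.274). Scn7a, by contrast, was higher in the VTA, at 1.65, 5.08 and 8.13 CPM in the VTA, 0, 0.581 and 2.35 CPM in the core and 0.166, 1.09 and 2.65 CPM in the shell. Its log2 difference against the core, 3.03 ± 0.208, was the largest positive one among the members with a mean of at least 1 CPM (edgeR adjusted p = 2.36e-24), and against the shell it was 2.00 ± 0.190. The lowest VTA library, female VTA NIC 2, lay within the NAc range. The next lowest, at 2.63 CPM, was also just under the highest shell library. Scn9a (Nav1.7) was higher in the VTA than in the core by 0.45, and the difference against the shell was -0.11 (edgeR adjusted p = 0.386). Among the beta subunits, which tune gating and placement of the pores, Scn4b was lower in the VTA by -1.81 and -1.11 and Scn2b higher by 0.67 and 0.61.

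Calcium channel genes were mostly lower in the VTA. Of the 7 Cav pores 6 were lower in the VTA than in either NAc region and 0 were higher. Cacna1d (Cav1.3, an L-type pore that opens at subthreshold potentials) was at 34.9, 51.3 and 116 CPM in the VTA and 121, 132 and 154 CPM in the core, without overlap although female VTA NIC 2, the highest VTA library, came close. The log2 differences of the L-type genes Cacna1c and Cacna1d were -0.85 and -1.33 against the core, those of the N- and R-type genes Cacna1b and Cacna1e -0.66 and -0.69, and those of the T-type genes Cacna1h and Cacna1i -1.04 and -1.51. The remaining T-type gene, Cacna1g (Cav3.1), was at 62.0, 81.8 and 129 CPM in the VTA, 50.8, 88.2 and 149 CPM in the core and 65.1, 96.1 and 153 CPM in the shell, and its differences of -0.04 ± 0.0801 and -0.15 ± 0.0794 did not pass the test (edgeR adjusted p = 0.659 and 0.0817).
Of the 10 auxiliary genes 8 were lower in the VTA than in the core and 1, the TARP gene Cacng7, was higher by 0.14. Cacng3 differed most, at 134, 174 and 209.7 CPM in the core and 18.9, 34.6 and 66.8 CPM in the VTA, a log2 difference of -2.29 ± 0.0645. The beta subunit genes Cacnb1 and Cacnb3, which bring pores to the membrane, differed by -1.52 and -1.78, with no VTA library inside the core range, and the alpha2delta genes Cacna2d1 and Cacna2d3 by -1.09 and -1.62. Cacng2 (stargazin) was higher in the VTA than in the shell by 0.33 and differed by 0.05 from the core.

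Both HCN genes were higher in the VTA. Hcn2 was at 169.7, 289 and 404 CPM in the VTA, 95.8, 125 and 165 CPM in the core and 82.6, 105 and 167 CPM in the shell, and its log2 differences were 1.16 ± 0.0625 and 1.37 ± 0.0621 (edgeR adjusted p = 7.68e-31 and 5.65e-36). Hcn4 was at 27.0, 32.1 and 37.2 CPM against 7.00, 11.6 and 16.6 CPM in the core and 9.30, 12.7 and 25.4 CPM in the shell, with differences of 1.44 ± 0.0641 and 1.20 ± 0.0627. The VTA libraries lay above all NAc libraries for both genes.

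Background potassium channels and auxiliary subunits completed the contrast. Kcnk9 (TASK-3, an acid-sensitive leak channel) was at 1.74, 4.85 and 8.91 CPM in the VTA, 0.127, 0.769 and 4.13 CPM in the core and 0.115, 0.866 and 2.40 CPM in the shell, with log2 differences of 2.33 ± 0.207 and 2.56 ± 0.206. Kcnk3 (TASK-1) was higher by 0.64 and 0.30, and Kcnk2 (TREK-1, a mechano- and lipid-gated leak channel) was lower by -1.67 and -1.38 with no overlap. The large-conductance channel subunit Kcnmb1, best known from smooth muscle, was at 0.457, 1.66 and 3.92 CPM in the VTA and 0.115, 0.559 and 1.27 CPM in the core, and was higher by 1.66 ± 0.190.
The sodium-activated channel Kcnt1 (Slack) and the small-conductance calcium-activated channel Kcnn1 (SK1) were lower in the VTA by -1.48 and -0.80 against the core. Kcnip2 (KChIP2, a calcium-binding partner of Kv4 channels) spread widely, at 0.0985, 1.33 and 25.2 CPM in the VTA, 3.68, 14.5 and 57.4 CPM in the core and 1.77, 11.3 and 68.2 CPM in the shell. Its log2 differences of -2.59 ± 0.331 and -2.46 ± 0.329 passed the test (edgeR adjusted p = 2.79e-11 and 1.45e-10) although the ranges overlapped. The other 5 auxiliary or related genes (Kcnab2, Kcne5, Kcnip1, Kcnip4 and Kcnrg) were all higher in the VTA than in the core, by 0.28 (Kcnip4) to 1.102 (Kcnrg) log2 units.

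**Figure D2:**
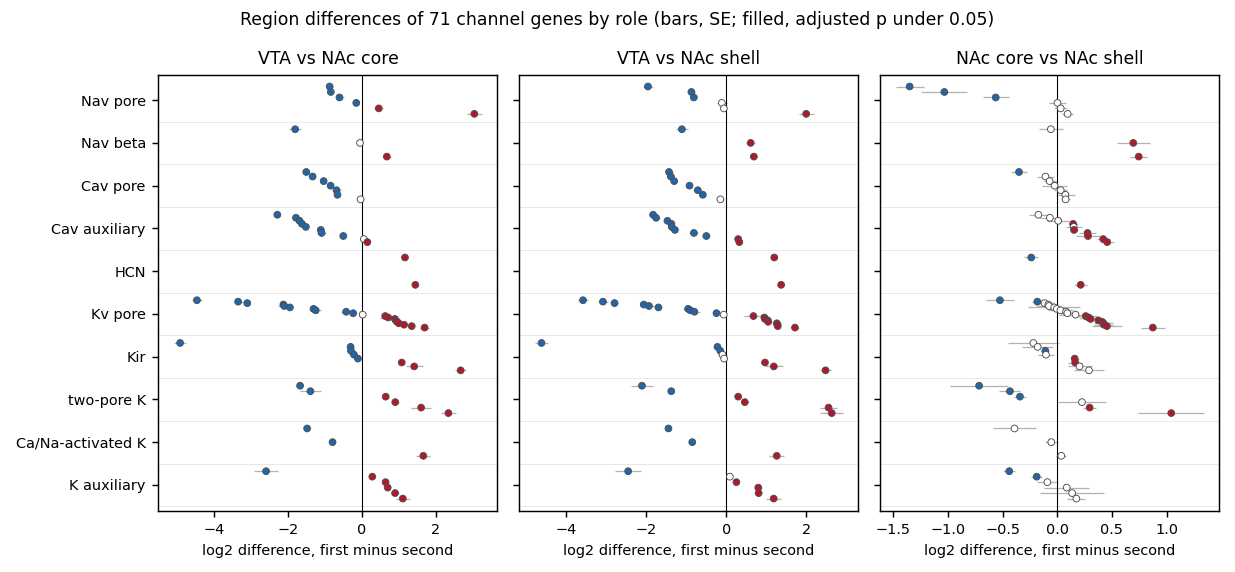
Log2 difference of each of the 71 members in the 3 region comparisons, arranged by role, with SE bars and filled points for an adjusted p under 0.05. Cav pores lay at or below 0 in both VTA comparisons, with 6 of 7 called lower, and both HCN genes lay above 1.

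Ranges over libraries did not overlap between VTA and core for 17 members (5 with the VTA above, 12 below), and between VTA and shell for 14 (4 and 10). Over all tested genes the shares were 9.89% and 6.58%. Between core and shell the ranges overlapped for every member, with 0.0118% of all genes separate.

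Core and shell, the 2 subregions of the NAc, were less far apart. Of the 71 members 35 differed (edgeR adjusted p under 0.05), 22 higher in the core and 13 in the shell, beside 15.8% and 16.5% of all tested genes. Leaving out the libraries that stood apart gave 34. Males alone, and saline rats alone, gave 21 each, and females alone gave 25. These fits hold fewer libraries and the shares of all genes called in them were not set beside these counts. Nothing about the members is therefore read from the lower counts.
On the shell side, Scn7a had a log2 difference (core minus shell) of -1.03 ± 0.212, Kcnk16, a tandem pore domain channel known from the pancreas, was at -0.72 ± 0.263, Scn9a at -0.56 ± 0.1203 and the modifier subunit Kcng2 at -0.52 ± 0.126. Kcnk16 had an edgeR adjusted p of 0.0278, which was 0.0667 with the rat as a block.
On the core side Kcnv1 led the members with a mean of at least 1 CPM, with 0.87 ± 0.113 (Kcnk15, below that mean, differed by 1.04). The sodium beta subunit Scn4b was higher by 0.70 ± 0.149. Cacng3 was higher by 0.46 ± 0.0605 and the modifier subunit Kcns2 by 0.45 ± 0.140. By role, 6 of 10 calcium auxiliary genes and 9 of 20 Kv genes were higher in the core and 0 and 2 in the shell, whereas 3 of 6 Nav pores were higher in the shell and 0 in the core. The pair of HCN genes split, Hcn2 higher in the core (0.21) and Hcn4 in the shell (-0.24). Cacna1h was the 1 Cav pore to pass the test (-0.35). Among the markers Nrgn (1.19), all 4 oligodendrocyte genes with a symbol (0.20 to 0.31), and Drd2 (0.49), Adora2a (0.42) and Ppp1r1b (0.50) of the striatal list were also higher in the core. All 4 meningeal fibroblast genes (-0.43 to -0.65), all 3 cholinergic genes (-0.88 to -0.98) and all 4 choroid plexus genes (-0.69 to -2.91) were higher in the shell (edgeR adjusted p under 0.05 for each). Of the choroid plexus genes, Ttr was at 359 CPM in male NAc shell SAL 5, beside a shell median of 0.985 CPM. The part of all these markers in the members' core and shell differences was not tested.

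Fitting males and females separately had given calls of opposite direction for Cacna1g, so a test of whether the region difference itself differed between the sexes was added after seeing the data. It called 17 members for VTA against core (edgeR adjusted p under 0.05), beside 11.3% of all tested genes, 8 for VTA against shell, beside 6.71%, and 2 for core against shell, beside 0.397%. In 14 of the 17 and 7 of the 8 the VTA value relative to the NAc was higher in females. The directions of all called genes were not counted, so this split is not read as a trait of the members. Without the libraries that stood apart the counts were 13, 5 and 3, beside 10.3%, 2.79% and 0.729% of all tested genes. The titles of all males carry box1 and those of all females box3, a term the labels do not explain, and the sexes were prepared in largely different batches, so sex, box and batch cannot be told apart here.
Kcnv1 differed most. The log2 difference between VTA and core was -5.16 in males and -3.76 in females, which gave -1.40 ± 0.263 for male minus female (edgeR adjusted p = 0.000446). Against the shell the values were -4.40 and -2.77. Its VTA medians were 1.55 and 1.43 CPM in male SAL and NIC rats and 3.13 and 2.64 CPM in females, and its core medians were 65.2 and 57.3 CPM in males and 44.8 and 48.6 CPM in females. Markers in the core moved with sex as well. Nrgn had medians of 2817 and 2414 CPM in male SAL and NIC rats and 1669 and 2009 CPM in females, and the striatal projection neuron list 1826 and 1809 CPM in males and 2821 and 2483 CPM in females. Their part in the differences between the sexes was not tested. Kcns3 was 1.33 log2 units higher in the VTA than in the core in males and 2.05 in females, and Kcnc4 0.58 and 1.40. Kcnj3, the GIRK1 pore, was lower in the VTA in males (-0.74) with 0.14 in females. Cacna1g, which did not pass the test in the sexes together, was at -0.38 in males and 0.31 in females, a difference of -0.69 ± 0.161 (edgeR adjusted p = 0.00285).
Other members named for this comparison were Kcng2 against the core (-0.89 in males, 0.03 in females) and, against the shell, Kcnj4 (-5.23 and -4.02), Kcng1 (-2.53 and -1.34) and Cacng3 (-2.15 and -1.51). Without the libraries that stood apart 3 of these no longer passed the test. The male minus female difference of Kcng2 moved from -0.92 to -0.59 (edgeR adjusted p = 0.0688), that of Kcnj4 from -1.21 to -0.96 (edgeR adjusted p = 0.0562) and that of Kcng1 from -1.19 to -0.98 (edgeR adjusted p = 0.0579). Between core and shell the potassium channels Kcnh6 (0.18 and -0.35) and Kcnk3 (-0.08 and -0.60) passed the test.

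**Figure D3:**
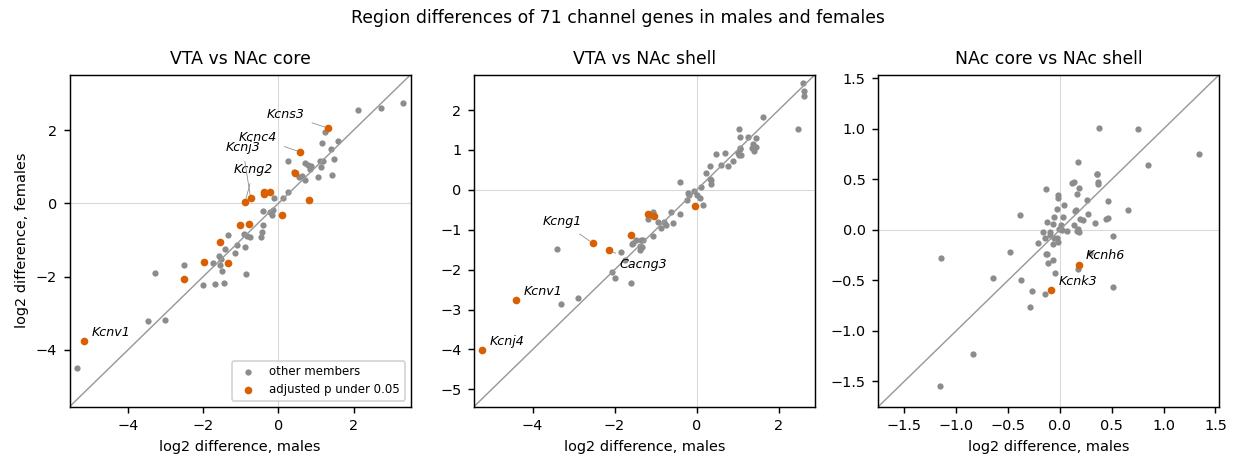
Log2 region difference of each member in males (horizontal) and females (vertical) for the 3 region comparisons, with the line of equality and orange points for a male-female difference at an adjusted p under 0.05. Kcnv1 lies above the line in both VTA panels, at -5.16 in males and -3.76 in females against the core.

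The second question was how the members differed between NIC and SAL rats in each region and sex. At the unadjusted p under 0.05 that the study used, members were called in 5 of the 6 contrasts and 0 in the male shell. No member passed an adjusted p of 0.05 in any contrast: the smallest edgeR adjusted p was 0.866 in the male VTA, 0.430 in the male core, 1.00 in the male shell, 0.509 in the female VTA, 0.732 in the female core and 0.466 in the female shell. Altogether 62 pairs of gene and contrast were called, from 50 members, and in all 62 the SAL and NIC ranges overlapped. Since 57 members were listed because they changed in these contrasts, these numbers describe the list and support nothing. Of those 57, 7 were not called here in any contrast, and of the 14 named by SA lists alone 0 were called. The SST lists were drawn up on these libraries and left those 14 out, so that count was largely fixed by the naming.

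Preparation batches were nearly split by treatment. In males only batch C held both SAL and NIC libraries of a region, with 2 SAL libraries and 2 to 4 NIC libraries, and in females only batch J did, with 2 and 2, except that batch L held 2 SAL libraries and 1 NIC library of the VTA. With batch as a covariate the counts of called members were 6 in the male VTA, 8 in the male core, 17 in the male shell, 1 in the female VTA, 3 in the female core and 3 in the female shell, beside 4.52%, 11.6%, 11.9%, 1.75%, 4.59% and 3.73% of all tested genes in the same fits, and 3, 5, 0, 1, 0 and 2 of these had been called without it. NIC and batch can therefore be told apart only through these few libraries.

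In the male VTA 14 members were called, 4 higher and 10 lower in NIC, beside 5.62% of all tested genes (2.35% higher, 3.28% lower). Kcnh4, Kcnk2 and Scn7a were among the higher ones. The lower ones were Hcn2, Kcna1, Kcna2, Kcnc4, Kcnip2, Kcnj10, Kcnj3, Kcnk3, Kcnrg and Scn8a. The members' median log2 difference was -0.04.
Kcnj10, the only SA-listed member among them, was at 24.2, 40.5 and 45.8 CPM in SAL and 18.5, 27.6 and 36.9 CPM in NIC rats, and fell by 0.43 on the log2 scale (edgeR adjusted p = 0.866). Kcnrg, which encodes a regulator of Kv assembly, was at 0.919, 1.27 and 1.97 CPM in SAL and 0.464, 0.682 and 1.20 CPM in NIC (-0.73 ± 0.244), low levels throughout. For both genes the medians were apart and the ranges overlapped.
Kcnip2 had the widest difference, -1.49 ± 0.579, with 0.490, 1.33 and 6.92 CPM in SAL and 0.0985, 0.853 and 2.02 CPM in NIC rats. Scn8a differed by -0.20, Hcn2 by -0.23, Kcnc4 by -0.40, Kcnh4 by 0.31 and Kcnk2 by 0.25. Several glial and neuronal markers moved too. The oligodendrocyte list summed to 32203 to 45500 CPM in SAL (median 41971) and 28128 to 40860 in NIC rats (median 33298), with 2 of 4 genes lower at an unadjusted edgeR p under 0.05, and 2 of 3 cholinergic markers were lower, Chat by -1.64 and Slc18a3 by -1.41. The astrocyte gene Slc1a2 (-0.33, 1 of 4 on its list) and the mural gene Rgs5 (-0.26) were also lower and the striatal gene Pdyn higher (0.40) at that threshold. Their part in the members' differences was not tested.

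In the male NAc core 15 members were called, 10 higher and 5 lower, beside 9.83% of all genes (5.78% higher, 4.06% lower). Without male NAc core SAL 1, the library low in Drd1, 6 were called, beside 10.2% of all genes, and 5 of them were among the 15. Among those higher were Cacna1c, Cacna1d, Cacna1i, Cacng5, Cacng7, Kcna5, Kcnj14, Kcns2 and Scn8a, and among those lower Cacng2, Kcnrg, Kcns3 and Kcnv1.
Among the higher ones were 3 Cav pores, Cacna1d from 123, 128 and 146 CPM in SAL to 127, 146 and 154 CPM in NIC (0.14 ± 0.0463), Cacna1i by 0.24 and Cacna1c by 0.21. Scn8a was at 67.4, 91.2 and 118 CPM in SAL and 79.0, 118 and 136 CPM in NIC rats (0.30 ± 0.116, edgeR adjusted p = 0.447), and 0.28 without that library. Kcnrg differed by -0.96. The 5 SA-listed members among the 15 were Cacna1d, Cacna1i, Cacng2 (-0.26), Kcns2 (0.37) and Kcns3 (-0.47). Of the meningeal fibroblast markers 3 of 4 were higher in NIC rats at an unadjusted edgeR p under 0.05, and the list summed to a median of 163 CPM in SAL and 216 CPM in NIC. Pdgfrb (0.28) and Mobp (0.25) were also higher, and Nrgn was lower by -0.35. Their part was not tested.

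In the male NAc shell 0 members were called at an unadjusted p under 0.05 by edgeR or by DESeq2, beside 2.46% of all genes (1.02% higher, 1.44% lower). Without male NAc shell SAL 1, 4 were called, beside 4.92% of all genes.

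In the female VTA 5 members were called, with Cacna1b, Kcnk10, Scn2b and Scn8a higher and Kcnmb1 lower in NIC, beside 9.24% of all genes (4.04% higher, 5.2% lower). The members as a list leaned upward, 55 of 71 above 0, with a median log2 difference of 0.12 against 0.02 over all tested genes. Without female VTA NIC 2, 48 of 71 were above 0 and the median was 0.04, against 0.01 over all genes, and 4 members were called, beside 7.51% of all genes, 3 of them among the 5. Scn8a was at 35.2, 44.1 and 57.9 CPM in SAL and 33.5, 57.0 and 92.9 CPM in NIC rats, with the highest value in female VTA NIC 2. Its log2 difference was 0.38 ± 0.158 (edgeR adjusted p = 0.518), and 0.25 without that library, when the unadjusted threshold was no longer passed. Kcnmb1 was at 1.66, 2.14 and 3.92 CPM in SAL and 0.481, 0.981 and 2.78 CPM in NIC, a difference of -1.01 ± 0.327 that was -0.93 without the library. Kcnk10 (TREK-2, a leak channel) differed by 0.42, Scn2b, the 1 SA-listed gene, by 0.25, and Cacna1b by 0.17. Among markers, Gfap (-0.42), Pdgfrb (-0.40), Cldn5 (-0.22), Csf1r (-0.21) and Lum (-0.69) were lower and Slc1a2 (0.26) and Slc5a7 (1.29) higher, each at an unadjusted edgeR p under 0.05, and their part was not tested.

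In the female NAc core 6 members were called, 4 higher (Cacng6, Hcn2 and Kcnab2 among them) and 2 lower (Kcnip2 and Kcnj4), beside 6.45% of all genes (2.87% higher, 3.57% lower). Kcnip2 was at 6.36, 31.9 and 57.4 CPM in SAL and 6.63, 13.6 and 24.4 CPM in NIC rats (-1.17 ± 0.334, edgeR adjusted p = 0.732). Hcn2 differed by 0.21, Kcnj4 by -0.16 and Kcnab2, the SA-listed one, by 0.33. Of the microglia markers 1 of 2, Cx3cr1, was higher in NIC rats (0.36) at an unadjusted edgeR p under 0.05, and its part was not tested.

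The female NAc shell had the most called members, 22, of which 7 were higher and 15 lower in NIC, beside 10.1% of all genes (5.25% higher, 4.88% lower). The lower ones took in 4 of the 7 Cav pores (Cacna1c, Cacna1e, Cacna1h and Cacna1i), 3 of the 10 calcium auxiliary genes (Cacna2d3, Cacnb1 and Cacnb3), and Kcnf1, Kcnh4, Kcnj4, Kcnk2, Kcnn1, Kcnt1, Scn3a and Scn4b. The higher ones were Cacna1g, Hcn4, Kcna6, Kcnc4, Kcnip1, Kcnj5 and Kcnk16.
Kcnj4 was at 88.0, 99.5 and 114 CPM in SAL and 47.4, 75.7 and 103 CPM in NIC rats (-0.37 ± 0.139, edgeR adjusted p = 0.466). Cacna1h was at 238, 256 and 312 CPM and 179.7, 208 and 291 CPM (-0.30 ± 0.0883, edgeR adjusted p = 0.466). Cacna1i differed by -0.39, Cacna1c by -0.20, Kcnk2 by -0.28, Kcnh4 by -0.26 and Kcnc4 by 0.36. In each case the NIC median lay below or above that of SAL while single libraries overlapped.
The SA-listed genes among the 22 were Cacna1i, Kcna6 (0.27), Kcnf1 (-0.27), Kcnk16 (0.94 ± 0.406), Kcnt1 (-0.24) and Scn3a (-0.17). All 5 striatal projection neuron markers with a symbol, Drd1 (-0.30), Drd2 (-0.25), Adora2a (-0.38), Pdyn (-0.36) and Ppp1r1b (-0.38), were also lower in NIC rats at an unadjusted edgeR p under 0.05, and the list summed to 1507 to 2163 CPM in SAL (median 1916) and 948 to 2031 in NIC (median 1517). Mag (0.30), Clic6 (1.16) and Slc18a2 (1.19) were higher at that threshold. The part of these cell types in the members' differences was not tested.

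**Figure D4:**
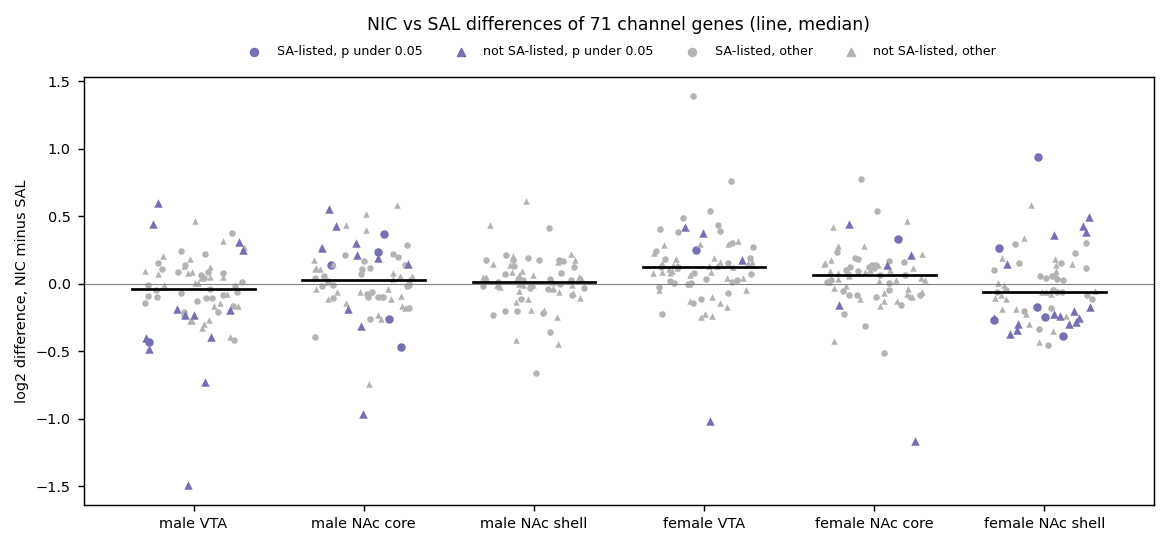
Log2 difference, NIC minus SAL, of the 71 members in each of the 6 contrasts, with circles for the 31 SA-listed members, triangles for the others, filled colour for an unadjusted p under 0.05 and a line at the median. The median sits at 0.12 in the female VTA and at -0.06 in the female NAc shell, and the male NAc shell has no coloured point.

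The SA lists rest on a contrast between the directions of the cross and not on NIC against SAL. The methods describe the SA rats as a separate treatment group, whereas the results speak of 1 set of male rats for both experiments, and 17 of the 31 SA-listed members were also named by the SST lists, so these counts are not independent of the naming. Of them 1, 5, 0, 1, 1 and 6 were called in the male VTA, core and shell and the female VTA, core and shell. These were 3.23%, 16.1%, 0%, 3.23%, 3.23% and 19.4% of the 31, beside 5.62%, 9.83%, 2.46%, 9.24%, 6.45% and 10.1% of all tested genes. The 14 members that only the SA lists name had 0 calls, so every call fell on a member that the SST lists also name. Nothing is therefore read from these shares against those of all genes. Without male NAc core SAL 1 the male core count was 2, or 6.45%, beside 10.2% of all genes. Without male NAc shell SAL 1 the male shell count was 1, and without female VTA NIC 2 the female VTA count was 2. With batch as a covariate the 6 counts were 1, 3, 7, 0, 2 and 2, or 3.23%, 9.68%, 22.6%, 0%, 6.45% and 6.45% of the 31, beside the shares of all genes in those fits given above.

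Of the 11 members called in more than 1 contrast (Cacna1c, Cacna1i, Hcn2, Kcnc4, Kcnh4, Kcnip2, Kcnj4, Kcnk2, Kcnrg and Scn8a among them), Scn8a alone was called in 3. It was lower in NIC rats of the male VTA and higher in those of the male core and the female VTA. Cacna1c and Cacna1i were higher in the male core and lower in the female shell, Hcn2 was lower in the male VTA and higher in the female core, Kcnc4 lower in the male VTA and higher in the female shell, and Kcnh4 and Kcnk2 higher in the male VTA and lower in the female shell. Kcnip2, Kcnj4 and Kcnrg kept their direction in the contrasts that called them.

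**Figure D5:**
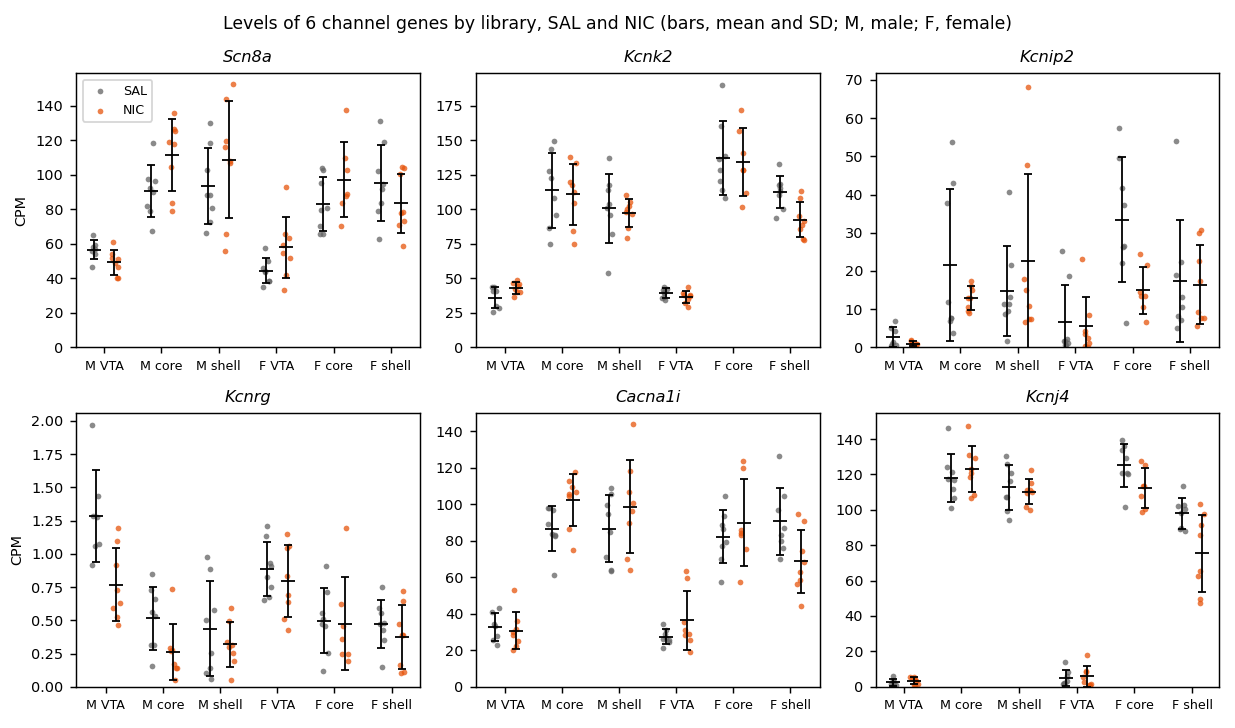
CPM by library for 6 of the members called in more than 1 contrast, in SAL (grey) and NIC (orange) rats of each sex and region, with bars for the mean and SD, cut at 0 where the SD exceeds the mean. SAL and NIC points overlap in every panel and group, with Kcnip2 in the female core at 6.36 to 57.4 CPM in SAL and 6.63 to 24.4 CPM in NIC rats.

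The NIC difference in males minus that in females was fitted as an interaction in each region. Since 57 of the 71 members had been named for passing a NIC contrast in at least 1 sex and region of these libraries, which favours a difference between the sexes, the counts and values are a description and nothing is read from them against the shares of all genes. No member passed an adjusted p of 0.05, with smallest edgeR adjusted p of 0.350 in the VTA, 0.516 in the core and 0.579 in the shell. At an unadjusted p under 0.05, 10 members were called in the VTA, 7 in the core and 12 in the shell, beside 11%, 8.89% and 8.07% of all tested genes. In the VTA 8 of the 10 had a lower NIC difference in males, with the smallest p for Kcnk10 (-0.72 ± 0.216, male minus female), Scn8a (-0.59 ± 0.189) and Kcnj3 (-0.70 ± 0.255). In the core the called members included Kcnj14 (0.31) and Kcna2 (-0.31), and in the shell Kcnip1 (-0.49), Cacna1i (0.58) and Scn3a (0.39) had the smallest p of the 12. Without the libraries that stood apart 8, 2 and 12 members were called in the VTA, core and shell, beside 10.2%, 8.97% and 9.98% of all tested genes, of which 7, 2 and 11 had been called with them, and Kcna2 (-0.25) was no longer called. With batch as a covariate 1, 8 and 11 were called, beside 2.74%, 7.45% and 6.26%, of which 0, 1 and 2 had been called without it, and Kcna2 differed by 0.06, the opposite direction.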

How the data were processed

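RNA-seq of 94 libraries from 32 rats was used. Per the labels, fastp 0.20.0 served for trimming and Salmon 0.12.0 for quantification, and the authors summed transcripts to genes on Rnor 6. The deposited values are estimated counts given as whole numbers, not normalized, and how they were rounded is not given in the sources used here. Libraries were normalized with edgeR 4.0.16 (trimmed mean of M values, R 4.3.3), and the 16879 genes with a normalized count above 10 in at least 3 libraries were tested with its quasi-likelihood test and Benjamini-Hochberg adjustment. NIC contrasts were fitted within each sex and region, and region contrasts over all 12 groups. The members and the gene lists were chosen with earlier results of these data known. Named genes were all members with an unadjusted p under 0.05 in a NIC contrast, the 5 largest and 5 smallest region differences among called members with a mean of at least 1 CPM, the Nav, Cav and HCN pores, and the 3 smallest interaction p per region. Some genes under this rule are not reported here. The region by sex test and the naming of its genes were added after seeing the data.

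Of 2 runs of male VTA SAL 5, which differed less than other pairs (chi-square per degree of freedom 3.05 against 9.41 to 38.5), 1 was used, and female NAc core NIC 1 was left out. Libraries of 1 number were taken as 1 rat. Their deviations from group means correlated at a median of 0.0316, 0.0257 and 0.0675 between regions (VTA and core, VTA and shell, core and shell), against -0.00782, -0.00365 and -0.0129 for other pairs. The analysis was tested on simulated counts. NIC and SAL groups hold different rats, so p-values of the NIC contrasts measure the spread between rats together with dissection and batch. The 3 regions of a sex and treatment come from the same rats. The main region fit treated their libraries as independent, and only the fit with the rat as a block takes the sharing into account. Alternatives were DESeq2 1.42.0 size factors and its test, other count filters, all mapped libraries, batch as a covariate, 1 sex or saline rats alone, the rat as a block, and leaving out the libraries that stood apart.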

Additional observations from a re-analysis of the deposited data

Results flagged for a closer look

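Among the NIC and SAL groups of the called members reported here, 8 of 116 groups had 1 library far from the others, in 7 genes, where chance alone gives about 1 in 20 groups (5.8). In the male core these were Kcnv1 in NIC 9 (29.4 CPM, lowest), Kcnrg in NIC 14 (0.738 CPM, highest), Cacna1d in SAL 7 (146 CPM, highest) and Cacna1i in SAL 3 (61.5 CPM, lowest). In the male VTA it was Kcnc4 in SAL 1 (142 CPM, highest). In females they were Kcnmb1 in VTA NIC 1 (2.78 CPM) and VTA SAL 12 (3.92 CPM), both highest, and Cacna2d3 in NAc shell SAL 13 (76.5 CPM, lowest).

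Region differences that differed between males and females by the interaction test are given as male minus female on the log2 scale, for up to 5 genes a comparison among those reported here. For VTA against core, where 17 members were called, those with the widest difference were Kcnv1 (-1.40), Kcng2 (-0.92), Kcnj3 (-0.88), Kcnc4 (-0.82) and Kcns3 (-0.72). For VTA against shell, where 8 were called, they were Kcnv1 (-1.64), Kcnj4 (-1.21), Kcng1 (-1.19) and Cacng3 (-0.64), and for core against shell Kcnh6 (0.53) and Kcnk3 (0.51). Sex, box and preparation batch cannot be told apart.

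The library labelled female NAc core NIC 1, which entered no comparison, lay within the VTA range and outside the core range for 17 of the 17 members whose VTA and core ranges were separate.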

How the results depend on the processing

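Of 143 alternative counts for 24 counts of members, 119 were within 1.5 times the value reported and 24 were not, and 1 named difference that had passed its test changed direction, the interaction of Kcna2 in the core (-0.31), which was 0.0622 with preparation batch as a covariate. With preparation batch as a covariate the called members numbered 6 (male VTA), 8 (male core), 17 (male shell), 1 (female VTA), 3 (female core) and 3 (female shell), the SA-listed ones 3 (male core), 7 (male shell), 0 (female VTA), 2 (female core) and 2 (female shell), and the interaction called 1 member in the VTA at an unadjusted p under 0.05. Without the libraries that stood apart these were 6 and, SA-listed, 2 (male core), 4 and 1 (male shell), SA-listed 2 (female VTA), 2 for the interaction in the core, and 5 for VTA against shell between the sexes. DESeq2 called 3 SA-listed members in the female VTA, the filter asking for 10 in every library left 3 called members there, and with all mapped libraries 2 SA-listed members were called in the female core. Core against shell gave 21 in males alone and 21 in saline rats alone. The cause was not tested. Of the 62 named NIC differences, 51 did not keep an unadjusted p under 0.05 with batch as a covariate.

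With the rat as a replicate block the region counts were 67, 64 and 34, and of 69 named region differences 1, Kcnk16 between core and shell, no longer passed the test (-0.59). NIC and SAL rats share no numbers, so no paired analysis of NIC was possible. The planned counts over the whole channel family were not run, since the RefSeq gene table held no Ensembl identifiers and the study's lists name only the genes they hold. With 7 or 8 rats a group the NIC differences were not past an adjusted p of 0.05 for any member, which does not show that they were absent.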

Other observations

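Another table of the study, without the symbol column that named the members, gave symbols for 3 further genes of the pattern, Cacna1a, Cacng8 and Kcnq5. All 3 were lower in the VTA than in the NAc core and shell, Cacna1a (the P/Q-type pore) by -0.75 and -0.61 log2 units, the TARP gene Cacng8 by -1.47 and -1.57, and Kcnq5 (an M-current pore) by -2.81 and -2.48. Female VTA NIC 2 held the highest VTA level of each. Between core and shell Cacna1a (0.14) and Kcnq5 (0.34) were higher in the core, with edgeR adjusted p of 0.00735 and 0.00154, and Cacng8 differed by -0.10. None of the 3 had an unadjusted p under 0.05 in a NIC contrast.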
